A study of Mus musculus with 3 samples.

Results

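Small nucleolar RNAs (snoRNAs) and small Cajal body RNAs were examined on 3 whole-transcript arrays of mouse thymocytes, which are T cells still developing in the thymus. Members were the probe sets annotated with a single gene symbol that begins with Snora, Snord or Scarna and a number. They were 60 of the 21789 probe sets with 1 symbol, and they stand for 54 genes: 33 box C/D probe sets (31 genes), 23 box H/ACA probe sets (20 genes) and 4 Cajal body probe sets (3 genes). A further 41 probe sets carry several symbols of which at least 1 has such a name, and they were not used.

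The wild type (WT) mice were 12 weeks old, the β-catenin transgenic mice 16 weeks and the TCF-1-/- mice 8 weeks. TCF-1 binds DNA and recruits β-catenin to its targets in Wnt signalling, and the study sought candidate targets among genes that the TCF-1 deletion lowers and the transgene raises. There was 1 array per genotype, so no value below has an error or a test, and age and genotype cannot be told apart. The sources used here do not give the transgene's promoter, the strain or how many mice were pooled for an array. The cells were an unsorted thymocyte suspension.

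snoRNAs are short nuclear RNAs that guide enzymes to ribosomal RNA by base pairing. Box C/D RNAs work with the methyltransferase fibrillarin, and box H/ACA RNAs with the pseudouridine synthase dyskerin. Cajal body RNAs guide the same modifications on the small nuclear RNAs of the spliceosome. Most of them are cut out of introns of a host gene, either a gene for a ribosomal or translation protein or a non-coding RNA whose introns carry its product, while a few have their own promoter.

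The annotated lengths of the members ran from 45 to 275 bases, with a median of 68 for box C/D, 125 for box H/ACA and 118 for Cajal body RNAs. Of the 54 genes, 51 are under 200 bases. The labels name a silica column kit for total RNA, a type of kit that retains very short RNAs poorly, and how much of each member it retained was not tested. In these data a probe set may also see the intron of the host transcript, which has the same sequence.

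The start regions of 3 non-coding hosts are shown because the members inside these hosts were among those with the largest differences. They come from RefSeq (GRCm38.p6), with 250 bases before and 50 after the annotated start. Snhg12, which contains Snora44 and Snora16a, lies at chr4:132308428-132308727 on the plus strand. Snhg3, which contains Snora73a and Snora73b, lies at chr4:132353637-132353936 on the minus strand, and Snhg10, which contains Scarna13, at chr12:105032230-105032529 on the minus strand. Capitals mark the longest run of C and T that comes within 5 bases of the start, and any match to the TCF motifs CTTTGAA and CTTTGAT or the E-box CACGTG on either strand.
Snhg12: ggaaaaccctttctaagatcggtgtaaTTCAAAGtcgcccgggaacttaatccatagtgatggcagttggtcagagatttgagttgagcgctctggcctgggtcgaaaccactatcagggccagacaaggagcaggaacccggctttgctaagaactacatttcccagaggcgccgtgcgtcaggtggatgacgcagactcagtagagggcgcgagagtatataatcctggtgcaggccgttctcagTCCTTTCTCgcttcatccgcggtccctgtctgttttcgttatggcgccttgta
Snhg3: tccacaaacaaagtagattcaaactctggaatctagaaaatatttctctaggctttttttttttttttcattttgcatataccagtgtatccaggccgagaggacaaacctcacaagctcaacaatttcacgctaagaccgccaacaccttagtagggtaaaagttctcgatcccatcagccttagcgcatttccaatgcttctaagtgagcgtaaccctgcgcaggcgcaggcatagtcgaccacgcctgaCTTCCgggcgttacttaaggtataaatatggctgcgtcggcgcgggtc
Snhg10: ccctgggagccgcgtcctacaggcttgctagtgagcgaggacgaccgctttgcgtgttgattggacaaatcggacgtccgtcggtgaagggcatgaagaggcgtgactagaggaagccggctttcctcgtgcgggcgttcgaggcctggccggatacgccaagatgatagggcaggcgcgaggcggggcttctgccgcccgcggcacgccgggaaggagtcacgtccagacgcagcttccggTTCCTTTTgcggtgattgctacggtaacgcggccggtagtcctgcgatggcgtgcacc

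A pyrimidine run that holds the first base is a known feature of genes for ribosomal proteins and of many snoRNA hosts. The nearest run was 9 bases long in Snhg12, 8 in Snhg10 and 5 in Snhg3. Of these, only the run of Snhg12 covers the annotated first base, while that of Snhg10 ends just before it and that of Snhg3 begins after it. Of the 32851 start regions in the table, 6.65% hold a run of at least 9 within 5 bases of the start, 9.38% a run of at least 8 and 31.4% a run of at least 5. Snhg12 holds 1 match to CTTTGAA, on the minus strand, beginning 223 bases before the start. CTTTGAA is found in 5.14% of all start regions, CTTTGAT in 3.73% and CACGTG in 7.15%. The other 2 regions hold none of these motifs, and a match is a description of letters only.

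Values are the deposited log2 values, and each difference is 1 array minus another in log2 units. Levels of different probe sets are not read as relative amounts of RNA, since probes differ in affinity. The split at the median level, the choice of bright and dim members to name and the summed marker levels do use them across probe sets. In a sum the brightest sets weigh most. Member values ran from 4.72 to 13.46 in wild type, from 4.20 to 13.50 in transgenic and from 3.93 to 13.50 in TCF-1-deficient thymocytes. The number of probes in each set is not given here, and a short RNA leaves room for few. The mean over the 3 arrays was at or above 6.91, the median over probe sets with 1 symbol, for 50 of the 60 members. Of the 60, 14 (23.3%) had exactly equal values on the 3 arrays, against 33.4% of all probe sets with 1 symbol. How equal values arose in the deposited processing is not given in these sources, so they are not read as measured equality.

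The T cell marker Cd3e was at 13.42 on the wild type, 13.34 on the transgenic and 13.05 on the TCF-1-deficient array, but other thymocyte markers differed. Of 11 measured, 6 were at least 2-fold below wild type in the TCF-1-deficient sample. These were Cd4 (12.87 against 9.13), Cd8a, Cd8b1, Rag1, Rag2 and Themis. Only Ptcra was at least 2-fold above it (8.91 against 10.70). None of the 11 passed 2-fold on the transgenic array. The summed linear level of all 11 was 73672 in wild type, 76361 in transgenic and 39006 in TCF-1-deficient cells. The summed level of 5 B lymphocyte markers was 1170, 1376 and 2280, and that of 6 myeloid markers 976, 1161 and 1554, in the same order. That of 6 thymic epithelium markers went the other way, at 1002, 847 and 612. In the TCF-1-deficient sample all 5 B lymphocyte markers were above wild type. Of the myeloid markers 3 were above, 2 below and 1 identical, and of the thymic epithelium markers 3 were above, 1 below and 2 identical. In bulk samples, fewer cells of a type and less RNA per cell cannot be told apart. Xist was at 12.49, 4.86 and 12.17, and the Y-linked genes Eif2s3y at 3.73, 8.43 and 3.84 and Uty at 4.20, 8.81 and 4.43. By these transcripts the transgenic array came from male cells and the others from female cells. Sex, like age, therefore cannot be told apart from genotype in any comparison with the transgenic array. Ctnnb1 was at 11.15, 11.39 and 11.16, and the gene disrupted in the TCF-1-/- mice was not analysed here.

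The members differed from wild type in both directions. In the TCF-1-deficient sample 2 members, Snora44 and Snora73b, were higher than wild type by at least 2-fold, where 1.4% of all 21789 probe sets were. In the same comparison 4 member probe sets of 3 genes were lower by at least 2-fold, Snord61, Snord37 and both sets of Snord58b, where 2.75% of all probe sets were. With each array centred on its median over all probe sets, which adds 0.13 to this difference, 7 members were higher and 4 lower by 2-fold, where 1.88% and 2.12% of all probe sets were. On the transgenic array 2 members were higher than wild type by at least 2-fold, Scarna13 and Snora44, against a background of 0.142%. The 2 sets of Snord58b were lower there, against a background of 0.115%. Both comparisons use the same wild type array, so a deviation of that array would enter both.

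With the threshold at 1.5-fold, 9 members were higher and 6 lower in TCF-1-deficient than in wild type cells, which is 15% and 10% of the 60. The same rule took 4.25% and 7% of all probe sets. On the transgenic array 7 were higher and 5 lower than wild type, which is 11.7% and 8.33%, and the background was 0.473% and 0.771%. Between the mutants, 3 members were higher and 0 lower on the transgenic than on the TCF-1-deficient array at 1.5-fold, where 6.26% and 4.67% of all probe sets were. At 2-fold the 1 member was Snord61, higher on the transgenic array, with backgrounds of 2.44% for higher and 1.65% for lower. Both sets of Snord118 and of Snord58b enter these counts. With the sets of a gene averaged, 8 of 54 genes were higher and 5 lower without TCF-1, and 7 were higher and 4 lower with the transgene. Over all genes counted that way, 4% and 6.87% passed without TCF-1, and 0.487% and 0.657% with the transgene. There is no replicate behind any of these counts.

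**Figure D1:**
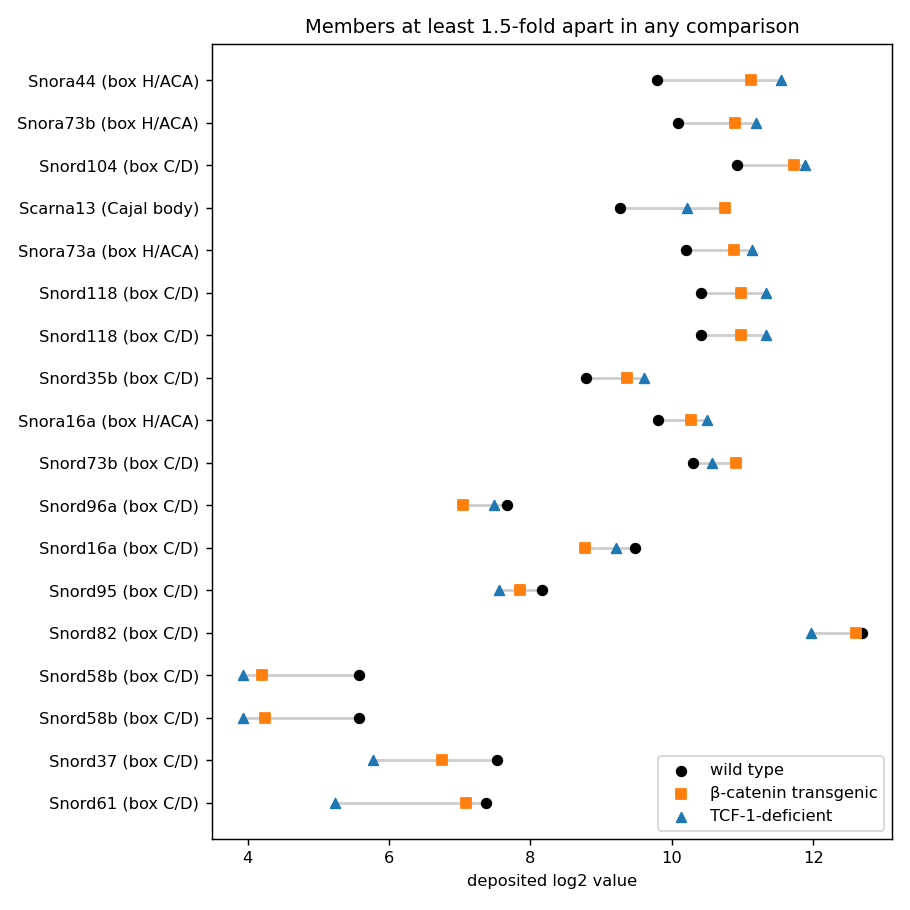
Deposited log2 values (x axis) of the 18 member probe sets at least 1.5-fold apart in any of the 3 comparisons, 1 row per probe set, with a circle for wild type, a square for transgenic and a triangle for TCF-1-deficient; grey lines join the lowest and highest array. In the top 10 rows, from Snora44 to Snord73b, wild type is the lowest array, and in the bottom 8 it is the highest.

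Among box H/ACA RNAs, Snora44 had the largest difference. Its value was 9.79 in wild type, 11.12 in transgenic and 11.54 in TCF-1-deficient cells. Wild type was the low array, and the TCF-1-deficient array was 3.35-fold and the transgenic array 2.51-fold above it. Snora16a, which lies in the same host Snhg12, was at 9.81, 10.28 and 10.50 in the same order. It had the same order of arrays with smaller differences, 0.47 for transgenic and 0.69 for TCF-1-deficient.

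Snora73a and Snora73b, the copies of the U17 RNA, act in the cleavage of the ribosomal RNA precursor rather than in its modification. Snora73a was at 10.20 on the wild type, 10.88 on the transgenic and 11.14 on the TCF-1-deficient array. Snora73b was at 10.08, 10.89 and 11.19. Both were lowest on wild type and highest without TCF-1, and because the copies are alike their probes may share signal. Snora74a, in the non-coding gene Snhg4, was at 8.85, 9.13 and 9.16.

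The other H/ACA members stayed under 1.5-fold in each comparison. Snora75, in the nucleolin gene Ncl, was lower on both mutant arrays (7.93 on wild type, 7.38 on transgenic, 7.35 on TCF-1-deficient). Snora23, in the importin gene Ipo7, was at 10.64, 10.46 and 10.11. Of the 23 H/ACA probe sets, 10 were above, 6 below and 7 identical to wild type in the TCF-1-deficient sample. That is 43.5%, 26.1% and 30.4%, near the 37.7%, 26.2% and 36.1% of all probe sets with 1 symbol. The median difference was 0 in each of the 3 comparisons, as it was over all probe sets. Both sets of Snora21 and of Snora3 were identical on all 3 arrays, as were Snora2b and Snora41.

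Box C/D RNAs held all the 2-fold lower members. Snord61, in the gene of the RNA-binding protein Rbmx, was at 7.36 on the wild type, 7.08 on the transgenic and 5.24 on the TCF-1-deficient array. Only the last was low, 4.36-fold under wild type and 3.59-fold under transgenic. Snord37, in the elongation factor gene Eef2, was at 7.53, 6.75 and 5.78, with all 3 arrays apart. The Snord58b sets, annotated to the ribosomal protein gene Rpl17, were at 5.57 and 5.58 on wild type, 4.20 and 4.24 on transgenic and 3.93 on TCF-1-deficient. The mean of each of these 4 probe sets over the arrays lay below 6.91, and 0 members at or above that level were lower by 2-fold in any comparison.

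The other lower C/D members passed 1.5-fold but not 2-fold. Snord82, the second RNA in Ncl, was at 12.68 on wild type, 12.61 on transgenic and 11.97 on TCF-1-deficient, so the TCF-1-deficient array alone was low. Snord95 and Snord96a lie in Rack1, the gene of a ribosomal scaffold protein. Snord95 was at 8.16, 7.85 and 7.55, and Snord96a at 7.67, 7.05 and 7.48, so the lowest array was the TCF-1-deficient one for the first and the transgenic one for the second. Snord16a, in Rpl4, was at 9.48, 8.77 and 9.21, lowest on the transgenic array.

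The higher C/D members included RNAs that are not made from a protein-coding intron. Snord118, the U8 RNA that is transcribed from its own promoter and is needed to process the large subunit RNAs, was at 10.42 on wild type, 10.98 on transgenic and 11.33 on TCF-1-deficient. Its 2 probe sets had the same values and count as 1 measurement. Snord104 was at 10.92, 11.73 and 11.89, lowest on wild type, and lies within the non-coding gene Gm36220. Snord35b was at 8.78, 9.37 and 9.61, with the same order of arrays. Snord73b, in Rps3a1, was at 10.30, 10.91 and 10.57, highest on the transgenic array.

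Other members with a role in processing the precursor did not share this order. Snord22, the U22 RNA in Snhg1, was at 7.37 on all 3 arrays, and Snord14e, a U14 RNA in the chaperone gene Hspa8, was at 9.44, 9.05 and 9.14. Of the Rpl13a snoRNAs, which have been linked to lipid stress in rodent cells, Snord33 was at 8.82, 9.12 and 8.93 and Snord35a at 10.75, 10.59 and 10.21. Snord47, which lies within Gas5, was at 10.70, 10.70 and 10.66. Of the imprinted clusters, whose snoRNAs are made mainly in brain, 0 probe sets carried a single symbol.

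Of the 33 box C/D probe sets, 9 were above, 16 below and 8 identical to wild type in the TCF-1-deficient sample. That is 27.3%, 48.5% and 24.2%, against 37.7%, 26.2% and 36.1% of all probe sets with 1 symbol. The median difference was 0 and the mean -0.19. This mean includes the 4 probe sets of Snord61, Snord37 and Snord58b, which differed by -2.13 to -1.65 and whose mean levels lay below 6.91. On the transgenic array 11 were above and 13 below wild type (33.3% and 39.4%, against 24.1% and 23.1% of all probe sets), with a median of 0 and a mean of -0.06. That mean includes both Snord58b sets, at -1.37 and -1.34. The difference between the C/D and H/ACA classes was not tested.

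Only 3 Cajal body RNAs were measured, and each behaved differently. Scarna13, in Snhg10, was at 9.27 on wild type, 10.76 on transgenic and 10.22 on TCF-1-deficient. It was the 1 member with a 2-fold difference that was highest on the transgenic array, 2.80-fold above wild type. Scarna17 was at 11.06, 11.35 and 11.35 in both of its probe sets, which count as 1 measurement, and Scarna8, in Haus6, was at 7.08 on all 3. The class median of 0.29 against wild type on both mutant arrays is therefore the value of Scarna17.

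**Figure D2:**
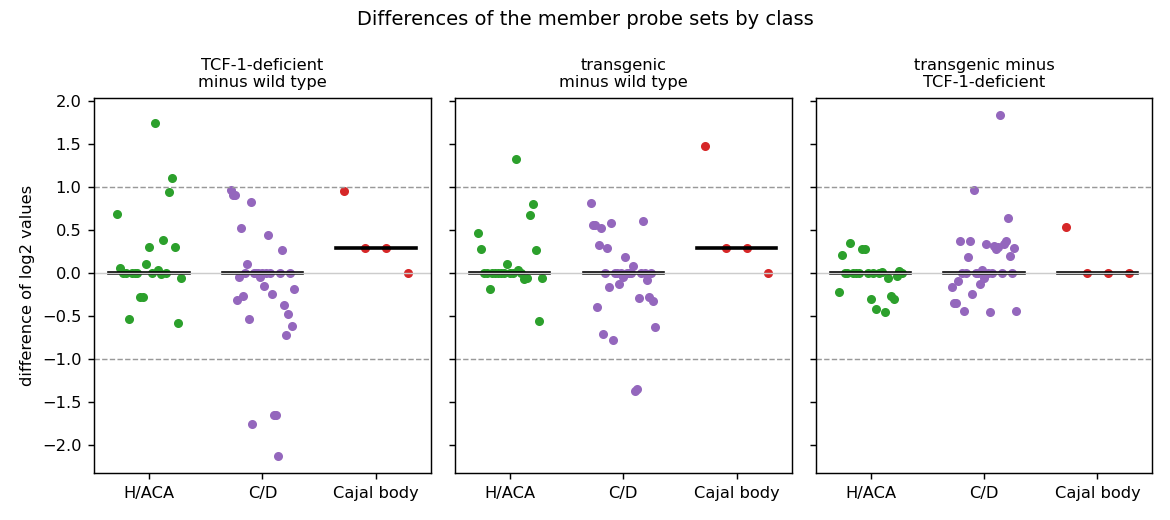
Differences of log2 values (y axis) of the 60 member probe sets by class, 1 panel per comparison; points are probe sets, black bars are class medians and dashed lines mark 2-fold. The medians of H/ACA and C/D lie at 0 in all 3 panels, and the 2-fold lower points against wild type are all C/D.

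Members were next set beside the gene that contains them. By position in the GRCm38.p6 gene table, 50 of the 54 member genes lie within exactly 1 other gene, 38 of them in 31 protein-coding genes and 12 in 9 non-coding genes. This grouping was chosen after the values were seen. Of the 13 probe sets in non-coding genes, 10 were above and 1 below wild type in the TCF-1-deficient sample, with a median of 0.31 and a range from -0.15 to 1.74. Over all probe sets 37.7% were above and 26.2% below. Scarna17 has 2 of the 13 sets, and over the 12 genes 9 were above and 1 below. The 42 probe sets in protein-coding genes had 10 above and 19 below, with a median of 0 and a range from -2.13 to 0.83. On the transgenic array the median over the non-coding group was 0.29, with 10 above and 1 below wild type, and that over the protein-coding group was 0, with 9 above and 17 below, where 24.1% of all probe sets were above and 23.1% below. The 3 members of non-coding hosts that were not above wild type without TCF-1 were Snord52, at 5.37 on all 3 arrays, Snord22, and Snord49b, at 13.17 on wild type, 13.36 on transgenic and 13.02 on TCF-1-deficient.

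The host itself was measured for 27 member genes, and in all 27 it is protein-coding. On the TCF-1-deficient array 18 of the 23 distinct hosts were above wild type and 5 below, with a median difference of 0.35. The small RNAs inside them had a median of 0, and 23 of 27 had a lower difference than their host. For 16 of the 22 members whose host was above wild type, the member was at or below it. Among these 16, Snora21, Snora3, Snora41, Snora70, Snord42a, Snord42b and Snord73a had values exactly equal to wild type. Such ties, which are not read as measured equality, also enter the median of 0 and the 23 of 27. Eef2 was higher by 0.15 where Snord37 was lower by 1.75, and Ncl was higher by 0.17 where Snord82 was lower by 0.72. Rpsa, a ribosomal protein gene, was higher by 0.64 where Snora62 differed by -0.01. Snord61 and its host Rbmx were both lower, by 2.13 and 0.45.

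On the transgenic array 4 of the 23 hosts were above wild type and 15 below, with a median of -0.10, and 17 of 27 members had a higher difference than their host. Rps3 was lower by 0.10 where Snord15b was higher by 0.53 and Snord15a by 0.33. Across the 27 members, the difference of the member and that of its host had a Pearson r of 0.56 and a Spearman rho of 0.46 on the TCF-1-deficient array, and -0.28 and -0.13 on the transgenic array. These points share arrays and in 4 cases a host, and ribosomal protein hosts have near-identical copies whose probe sets can share signal. Whether the deposited value of a small RNA follows the processed RNA or the host intron was not tested.

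**Figure D3:**
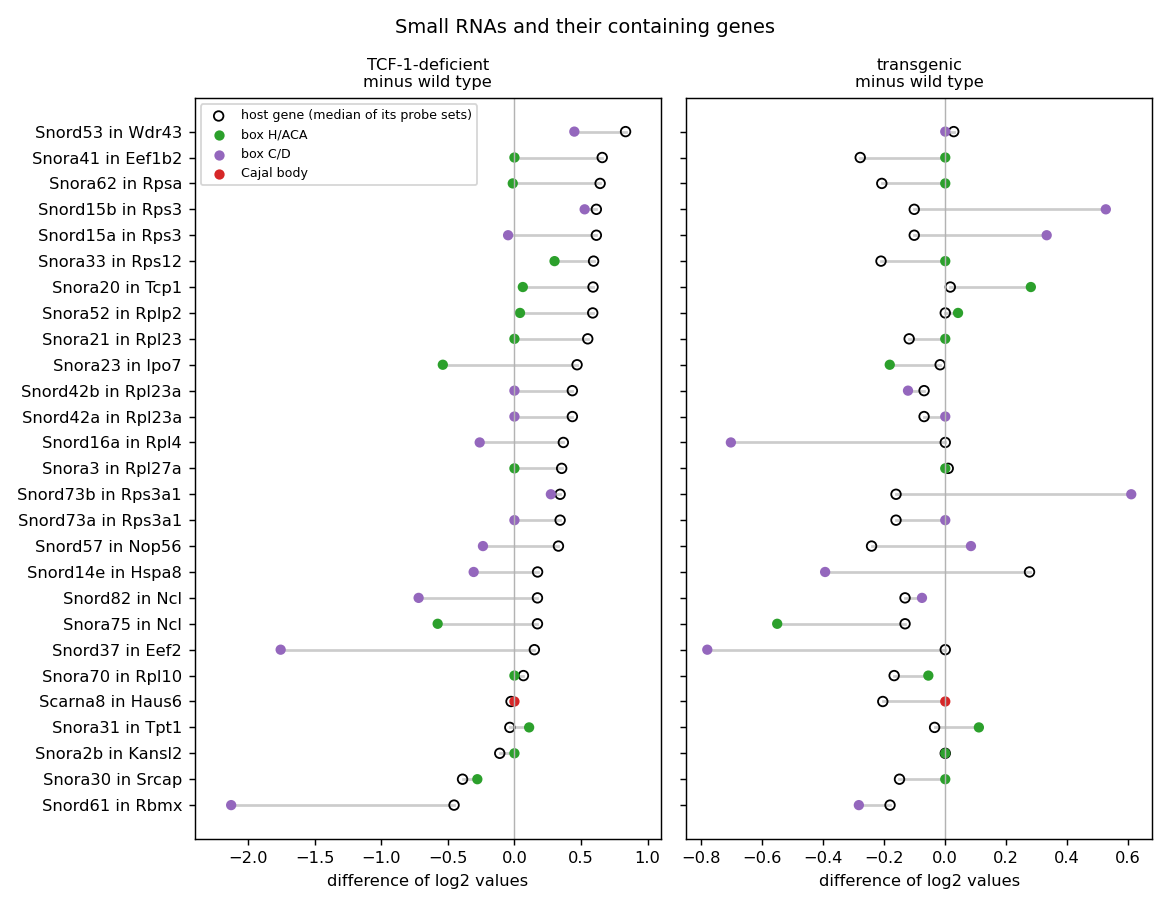
Differences of log2 values (x axis) from wild type for 27 members (filled points, coloured by class) and the gene that contains each (open circles, the median over its probe sets), on the TCF-1-deficient array at left and the transgenic array at right; the x axes of the panels differ in scale. At left 23 of the 27 filled points lie left of their host.

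RNAs of the same host did not always lie on the same side of wild type. Of 10 hosts with more than 1 measured member, 4 had all members on 1 side of it on the TCF-1-deficient array, Snhg12, Snhg3, Ncl and Rack1. These 4 and Rps3 did so on the transgenic array. Within Rpl13a the RNAs were 0.65 apart on the TCF-1-deficient array, and within Snhg12 they were 1.06 apart.

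Length went with the difference across members. Over the 54 genes, annotated length and the difference from wild type had a Pearson r of 0.45 and a Spearman rho of 0.37 on the TCF-1-deficient array, and 0.50 and 0.36 on the transgenic array. The points share arrays, hosts and the wild type values. All 3 RNAs of at least 200 bases, Scarna13, Snora73a and Snora73b, were above wild type on both mutant arrays, by 0.68 to 1.49. Snora73a and Snora73b are the U17 copies, whose probes may share signal. Just under that length, Snora74a (198 bases) was higher by 0.31 without TCF-1 and 0.27 with the transgene. Snora23 (184 bases) was lower by 0.54 and 0.18. Length and host also go together, since the median length was 121.5 bases in non-coding and 90 in protein-coding hosts. Their separate parts in the differences were not tested.

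**Figure D4:**
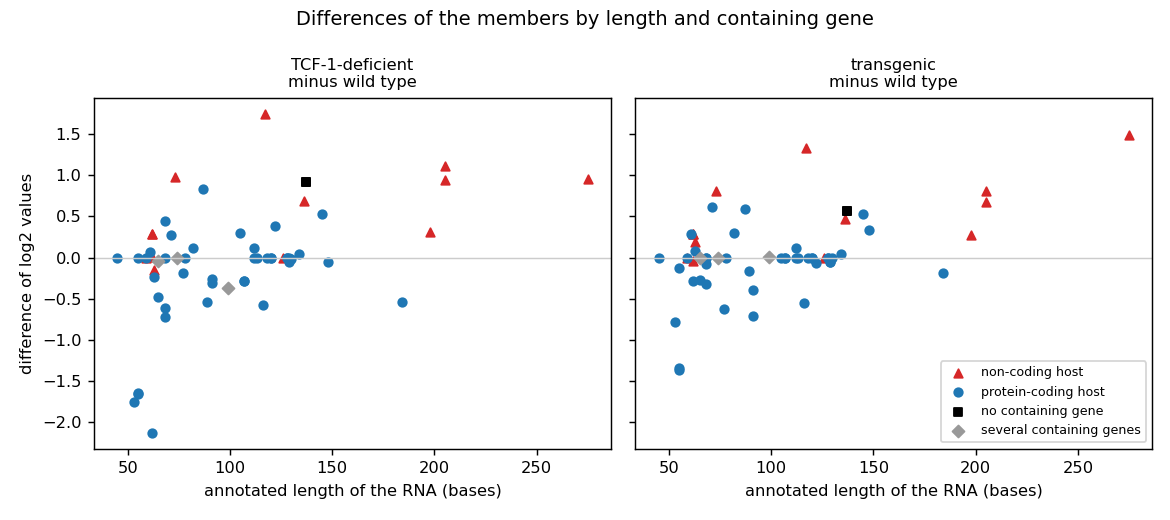
Difference of log2 values from wild type (y axis) against the annotated length of the RNA in bases (x axis) for the 60 member probe sets, TCF-1-deficient at left and transgenic at right; symbols give the kind of containing gene. The 4 lowest points at left are RNAs under 100 bases in protein-coding hosts, and the 3 RNAs of at least 200 bases, in non-coding hosts, lie above 0.

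Transcripts of the proteins that package these RNAs were examined as lists. On the TCF-1-deficient array all 6 H/ACA genes, which make the core and its assembly factors, were above wild type, with a median of 0.55 and 3 of 6 higher by at least 1.5-fold, where 4.25% of all probe sets were and 37.7% were above 0. Dkc1, the pseudouridine synthase, was at 9.01 on wild type, 9.01 on transgenic and 9.85 on TCF-1-deficient. Gar1, a core protein, was at 8.83, 8.88 and 9.67, and Nhp2, another, at 8.32, 8.12 and 9.02. The wild type and transgenic arrays lay together and the TCF-1-deficient array above them.

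All 9 probe sets of the 5 measured C/D genes were also above wild type in the TCF-1-deficient sample, with a median of 0.33, 3 of 9 past 1.5-fold and 0 past 2-fold. Over all probe sets with 1 symbol, 37.7% were above wild type, 4.25% by at least 1.5-fold and 1.4% by at least 2-fold. Fbl, which encodes fibrillarin, was at 9.22, 9.22 and 10.22 in 1 probe set, a difference of 0.997, just under the threshold, and the other set differed by 0.87. Nop58, a core protein of the particle, was at 9.18, 8.88 and 9.81, and Nop56 at 10.99, 10.75 and 11.32. On the transgenic array the medians of these lists were -0.01 and -0.02 relative to wild type.

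Of 7 measured assembly genes, Znhit6 (0.77) and Ruvbl1 (0.76) were higher than wild type by at least 1.5-fold in the TCF-1-deficient sample, and Pih1d1 was identical, against the same 4.25%. Of 14 genes for Cajal body proteins and small RNA maturation, Nolc1, a nucleolar chaperone of the particles, was higher by 0.81, while Coil, which encodes coilin, was at 7.69 on all 3 arrays. Wrap53, which brings RNAs to Cajal bodies, was lower by 0.20. The median of that list was 0. With the transgene 0 probe sets of these lists passed 1.5-fold in either direction, where 0.473% of all probe sets were higher and 0.771% lower.

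**Figure D5:**
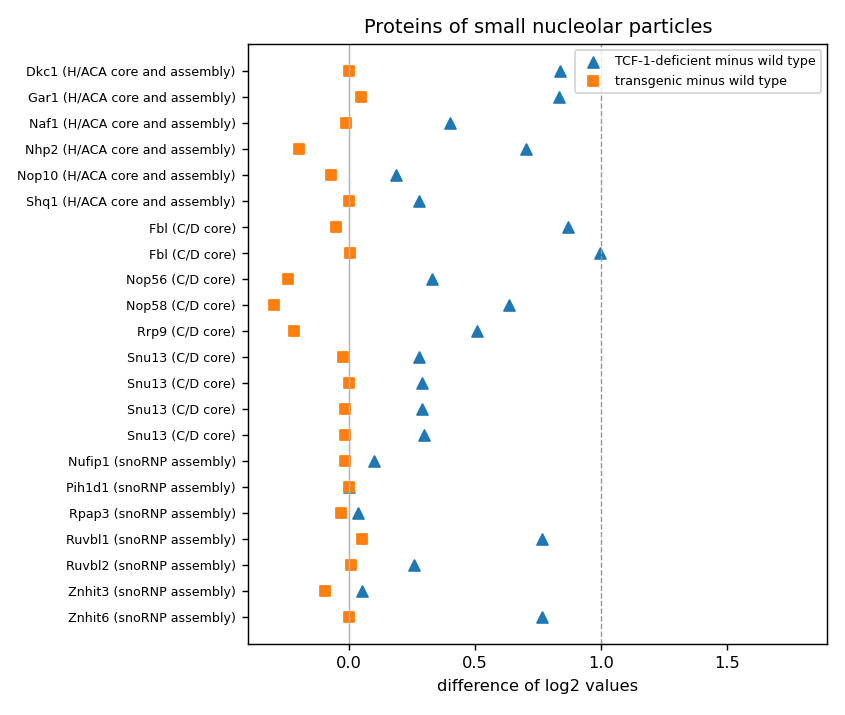
Differences of log2 values from wild type (x axis) for the probe sets of genes for H/ACA, C/D and assembly proteins, with a triangle for TCF-1-deficient and a square for transgenic; the dashed line marks 2-fold. The triangles lie at or right of 0 and reach 0.997 for Fbl, and the squares lie between -0.30 and 0.05.

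MicroRNA precursors, another class of short RNAs on the array, are given for comparison. Of 296 probe sets, 15 were at least 2-fold below wild type in the TCF-1-deficient sample and 0 above it, where 2.75% and 1.4% of all probe sets were. In the transgenic sample 1 was below and 0 above, where 0.115% and 0.142% of all probe sets were. At 1.5-fold, 4 were higher and 18 lower on the first (1.35% and 6.08%, against 4.25% and 7% of all probe sets). On the second 0 were higher and 13 lower (0% and 4.39%, against 0.473% and 0.771%). Their median difference was 0 in each comparison, and 52.4% were identical to wild type in the TCF-1-deficient sample, against 26.7% of the snoRNA and Cajal body members and 36.1% of all probe sets. The difference between these classes was not tested.

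Some markers of other cell types shared an order of arrays with several of the higher snoRNAs, wild type lowest and TCF-1-deficient highest. Of 18 measured B lymphocyte, myeloid, thymic epithelium and erythroid markers, 7 had that order and the rest did not. The share of all probe sets with that order was not counted, so 7 of 18 has no background beside it. Cd79a, which carries the signal of B cell receptors, was at 6.99 on wild type, 7.96 on transgenic and 9.52 on TCF-1-deficient, and Lyz2, a lysozyme of myeloid cells, at 8.05, 8.44 and 9.17. Alas2, which makes heme in red cell precursors and is the 1 measured of 6 erythroid markers, was at 7.14 on wild type, 8.25 on transgenic and 8.28 on TCF-1-deficient. Among the markers without that order, Itgam of myeloid cells was at 6.84, 7.81 and 6.70. Cldn4 of thymic epithelium was at 9.38, 8.94 and 7.94, highest on wild type. Fcgr3, Epcam and Psmb11 were each identical on all 3 arrays. The part of other cell types, or of a different make-up of the thymocytes themselves, in the snoRNA differences was not tested.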

How the data were processed

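Total RNA of unsorted thymocytes was labelled for Affymetrix whole-transcript arrays, 1 array per genotype. The deposited values behave as log2 values. The submitters' processing notes name Partek and RMA, while the sources used here give no log base, version, setting or genome build. The deposited normalisation was kept. Probe sets were named from the platform annotation (23410 of 35556 probe sets listed), all 54 member genes were matched by Entrez number to the RefSeq GRCm38.p6 gene table, and columns of other samples numbered 0. Containing genes were found by position alone, because that table gives no strand, so a host on the other strand cannot be told apart. Differences of at least 1 log2 unit (2-fold) are a rule of size, with no test. For each comparison the naming rule took the 10 members with the largest difference in each direction. It also took the 5 brightest and 3 dimmest of each class, every Cajal body RNA, genes with 2 probe sets, fixed groups of members, their hosts, and lists of particle proteins and host transcripts. Members and lists were chosen with earlier results of these data known. As alternatives, the threshold was set to 1.5-fold or 3-fold, and the other settings were members at or above the median level, centring of arrays, loess (span 0.3), averaging of probe sets and the mean. The calculation was tested on simulated data. Tables were handled with pandas 2.3.3 and NumPy 2.4.6 in Python 3.11.15, loess was fitted with statsmodels 0.14.6, correlations came from SciPy 1.17.1, and plots from matplotlib 3.10.9.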

Additional observations from a re-analysis of the deposited data

How the results depend on the processing

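With 1 array per genotype nothing could be left out, the number of arrays limits every value, and no depth or replicate spread is known. No paired analysis was possible because each genotype has 1 array. Of the alternative values, 28 moved, and the others stayed within 1.5 times the count, within 0.1 of the median or past 2-fold. The cause of the moves was not tested. Counts and medians of 0 have no direction to reverse. The Cajal body median between the mutants changed sign within the 0.1 margin, from 0.003 to -0.05 with arrays centred. Every member past 2-fold kept its direction and stayed past 2-fold with arrays centred and after loess.

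Without TCF-1, relative to wild type, 2 higher members became 9 at 1.5-fold, 1 at 3-fold and 7 with arrays centred, and 4 lower members became 0 among members at or above the median level and 0 among those of at least 100 bases. With the transgene, relative to wild type, 2 higher became 7 at 1.5-fold and 0 at 3-fold, and 2 lower became 5 at 1.5-fold, 0 at 3-fold, 0 at or above the median level, 1 with probe sets averaged and 0 at 100 bases or more. Between the mutants, 1 higher became 3 at 1.5-fold, 0 at or above the median level and 0 at 100 bases or more. The alternatives on length, on members whose values differ and on averaged sets at 1.5-fold were chosen after seeing the data.

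Centring adds 0.13 to every TCF-1-deficient minus wild type difference, so the medians over all members, H/ACA and C/D became 0.13 each and that of Cajal body RNAs 0.42. The mean in place of the median gave 0.17 for H/ACA and -0.19 for C/D in that comparison, 0.13 for H/ACA and 0.52 for Cajal body RNAs with the transgene, and 0.13 for both C/D and Cajal body RNAs between the mutants. The C/D mean without TCF-1 includes the dim probe sets of Snord61, Snord37 and Snord58b. Over members whose values differ, the C/D median was -0.19 without TCF-1 and 0.20 between the mutants, and the H/ACA median was 0.11 with the transgene.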

Other observations

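Other structured RNAs on the same arrays, chosen after their values were seen, stayed within 2-fold of wild type. Of 15 probe sets, in the TCF-1-deficient sample 1 was above and 2 below wild type by 1.5-fold or more, where 4.25% and 7% of all probe sets were. In the transgenic sample these counts were 0 and 1, where 0.473% and 0.771% of all probe sets were. Terc, the telomerase RNA with its own H/ACA domain, was at 11.80 on wild type, 11.66 on transgenic and 11.64 on TCF-1-deficient. Rnu3a, a U3 RNA of the box C/D kind, was at 9.14, 9.14 and 9.17. Rmrp, the RNA of a ribosomal RNA-cleaving enzyme, was at 11.94, 12.28 and 12.16. The annotated 5S ribosomal RNA n-R5s136 was at 9.26, 9.77 and 10.03, and Rnu12, of the minor spliceosome, at 8.32, 8.09 and 7.52.

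Probe sets of the snoRNA host Gas5 disagreed. On the TCF-1-deficient array relative to wild type its 4 sets differed by 0.59, -0.38, -0.03 and -1.26, and on the transgenic array by -0.46, -0.88, -0.03 and -1.10. Which of them lie on exons of Gas5 and which on its snoRNAs is not given in the sources used here. Gas5 and the measured Snhg genes, 6 genes in all, had 12 probe sets. On the TCF-1-deficient array 6 sets were above and 4 below wild type, with a median of 0.04. On the transgenic array 3 were above and 6 below, with a median of -0.01. The 9 non-coding genes that alone contain a member are not among these 6 genes, and their own transcripts were not measured.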
